A study of Mus musculus with 12 samples.

Results

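A set of 10 genes of arachidonic acid metabolism was followed in bone marrow-derived macrophages, out of 47937 genes with counts. These were chosen by name: Pla2g4a for arachidonate release, Alox5, Alox5ap, Lta4h and Ltc4s for leukotrienes, Tbxas1 for thromboxane, Hpgds for prostaglandin D2, Hpgd for prostaglandin breakdown, and Ptger2 and Ptger4 as receptors of prostaglandin E2. All 10 were found in the count table, and 9 of the 10 passed the filter on low counts. Alox5 did not, since it had at most 13 reads in any library.

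Bone marrow cells of C57BL/6 mice had been cultured for 7 days in 20 ng/ml of CSF-1 to obtain the macrophages. The 12 libraries form 4 groups of 3. M0 macrophages were left resting, and the second group received 50 ng/ml of IFNγ and 20 ng/ml of LPS (IFNγ + LPS). The other two groups are named M0 with DGAT1i for resting and IFNγ + LPS with DGAT1i for activated cells, where DGAT1i is 50 µM of T863, an inhibitor of the triglyceride-forming enzyme DGAT1. The 3 groups other than M0 are labelled 18 h, and the M0 labels give no time. The labels name no genetic change in any group. All 6 treated libraries have T863 in their source names, but the descriptions of 2 M0 with DGAT1i libraries, replicates 2 and 3, read T864 and T865. The labels do not say whether the 3 libraries of a group came from separate mice, and p-values then measure only the spread between these libraries.

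Eicosanoids are short-lived lipid signals made from arachidonic acid, which cytosolic phospholipase A2 cuts from membrane lipids. One branch runs through 5-lipoxygenase, which needs the membrane protein FLAP, to leukotriene A4, and from there either to leukotriene B4, which draws in neutrophils, or to the cysteinyl leukotrienes, which tighten airways and make vessels leak. The other branch runs through the cyclooxygenases to prostaglandins and thromboxane. Macrophages use both, and prostaglandin E2 acts back on them through receptors that raise cyclic AMP.

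The libraries held between 4996014 and 6621671 reads. Values are counts per 1000000 reads after TMM scaling (CPM), in which 1 CPM was worth 4.28 to 7.58 reads, so that Alox5, Ltc4s and Hpgd rested on few reads in some groups. Of the macrophage markers, 10 of 10 were tested, and their summed level was 13441 to 14674 CPM in M0 and 8750 to 9414 CPM in IFNγ + LPS, and with DGAT1i 16394 to 18411 and 8319 to 9256 CPM. All 10 were called on activation, 4 higher and 6 lower, where 73.3% of all genes tested were called (37.1% higher, 36.2% lower). Of 9 mast cell markers, 5 (Cpa3, Fcer1a, Tpsb2, Tpsab1 and Cma1) had 0 reads in all 12 libraries. The summed level of the 9 was 0.44 to 0.84 CPM in M0 and 5.25 to 7.38 CPM in IFNγ + LPS, and with DGAT1i 0.28 to 0.93 and 2.88 to 4.20 CPM. It followed Hdc, the histamine-making enzyme, which rose on activation (log2 fold change 5.74, adjusted p = 2.17e-14, edgeR) and fell with DGAT1i in activated cells (-0.96, adjusted p = 0.011). Of 5 megakaryocyte and platelet markers, Gp9 and Gp1bb were at 0 in all 12 libraries, and the 5 summed to 0.19 to 2.57 CPM. Of 10 neutrophil and precursor markers, Ly6g and Retnlg were at 0 in all 12. The summed level of the 10 neutrophil and precursor markers was 53.7 to 62.8 CPM in resting libraries without and 53.7 to 56.6 CPM with DGAT1i, and 196 to 215 CPM in activated libraries without and 209 to 220 CPM with DGAT1i. Csf3r alone held 181 to 197 and 129 to 154 CPM of the activated sums. Without it the other 9 summed to 31.6 to 38.7 CPM in M0 and 15.2 to 25.5 CPM in IFNγ + LPS, and with DGAT1i to 22.9 to 29.0 and 63.0 to 81.0 CPM. On activation Csf3r was higher (log2 fold change 2.94) while Ngp (-2.60) and Ltf (-2.93) were lower. Both tested dendritic cell markers of 5 were called on activation, Clec10a lower (-3.88) and Xcr1 higher, from 1 read over the M0 libraries to 86 over those of IFNγ + LPS. The part of these markers in the members' changes was not tested. In bulk samples, fewer cells of a type and less RNA per cell cannot be told apart.

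The promoters of 4 members are printed: the synthase of prostaglandin D2 and the enzyme of prostaglandin breakdown, which fell on activation, and the phospholipase and the receptor that rose most. The windows run from 250 bases before to 50 bases after the RefSeq start site and come from RefSeq on GRCm38.p6, 5′ to 3′ along the gene. These start sites can differ from the GENCODE gene positions given below. The whole Ptger2 window lies before the GENCODE start of the gene, and the Tbxas1 window lies inside the gene. Of the 10 members, 9 had a window. Capitals mark matches to a PU.1 core (GAGGAA, or TTCCTC on the other strand) or a C/EBP pattern (TTGCNNAA, either strand), letters bound by factors of the myeloid lineage.
Hpgd, chr8:56294302-56294601, plus strand: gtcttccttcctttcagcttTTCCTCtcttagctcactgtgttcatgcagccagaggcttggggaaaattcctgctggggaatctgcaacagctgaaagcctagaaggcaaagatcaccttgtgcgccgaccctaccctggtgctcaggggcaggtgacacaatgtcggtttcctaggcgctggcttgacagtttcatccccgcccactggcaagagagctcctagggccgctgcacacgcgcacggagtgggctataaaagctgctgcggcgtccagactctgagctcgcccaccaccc
Hpgds, chr6:65144681-65144980, minus strand: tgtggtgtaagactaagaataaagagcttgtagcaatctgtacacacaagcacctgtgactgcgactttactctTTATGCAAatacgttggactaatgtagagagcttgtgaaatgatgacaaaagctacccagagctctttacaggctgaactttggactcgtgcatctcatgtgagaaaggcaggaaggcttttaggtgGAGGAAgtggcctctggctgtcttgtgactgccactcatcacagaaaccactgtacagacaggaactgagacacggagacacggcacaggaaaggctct
Pla2g4a, chr1:149961241-149961540, minus strand: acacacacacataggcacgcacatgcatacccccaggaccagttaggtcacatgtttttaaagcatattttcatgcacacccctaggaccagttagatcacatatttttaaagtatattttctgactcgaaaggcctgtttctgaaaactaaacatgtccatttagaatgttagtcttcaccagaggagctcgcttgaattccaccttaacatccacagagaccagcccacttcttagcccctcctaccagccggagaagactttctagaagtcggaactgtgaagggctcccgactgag
Ptger2, chr14:44987861-44988160, plus strand: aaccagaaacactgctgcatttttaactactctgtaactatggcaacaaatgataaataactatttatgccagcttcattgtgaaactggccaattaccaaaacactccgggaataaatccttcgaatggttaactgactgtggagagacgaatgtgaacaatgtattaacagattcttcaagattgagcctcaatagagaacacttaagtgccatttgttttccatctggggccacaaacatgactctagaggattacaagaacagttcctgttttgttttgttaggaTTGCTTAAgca
The PU.1 core was present in the windows of 6 of the 9 members (Alox5, Lta4h, Ltc4s, Tbxas1, Hpgds and Hpgd) and in 28.28% of the 32851 windows in the table. It was absent from those of Pla2g4a (2 windows), Ptger2 and Ptger4. A C/EBP match stood in the windows of Hpgds, at position -176 from the start site, and of Ptger2, at position 40, and in 10.8% of all windows. An NF-kB pattern (GGGA and CC, 4 bases apart) was found in Alox5 and Lta4h and in 20.73% of all windows. No member's window held the IFNγ-activated site TTCNNNGAA or the interferon response core of GAAA repeated after 2 bases, which 8.298% and 3.443% of all windows did. The matches are letters in a fixed window and not measured binding.

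The first comparison asks how the resting cell's eicosanoid genes stood after activation by IFNγ + LPS. Phospholipase and the prostaglandin E2 receptors went up while the tested leukotriene genes, prostaglandin D2 synthase and the prostaglandin-degrading enzyme went down. All 9 tested members were called (4 higher, 5 lower; adjusted p under 0.05, quasi-likelihood test of edgeR, Benjamini-Hochberg over 11760 genes). Of all genes tested 73.3% were called, 37.1% higher and 36.2% lower, so that a call was common.

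**Figure D1:**
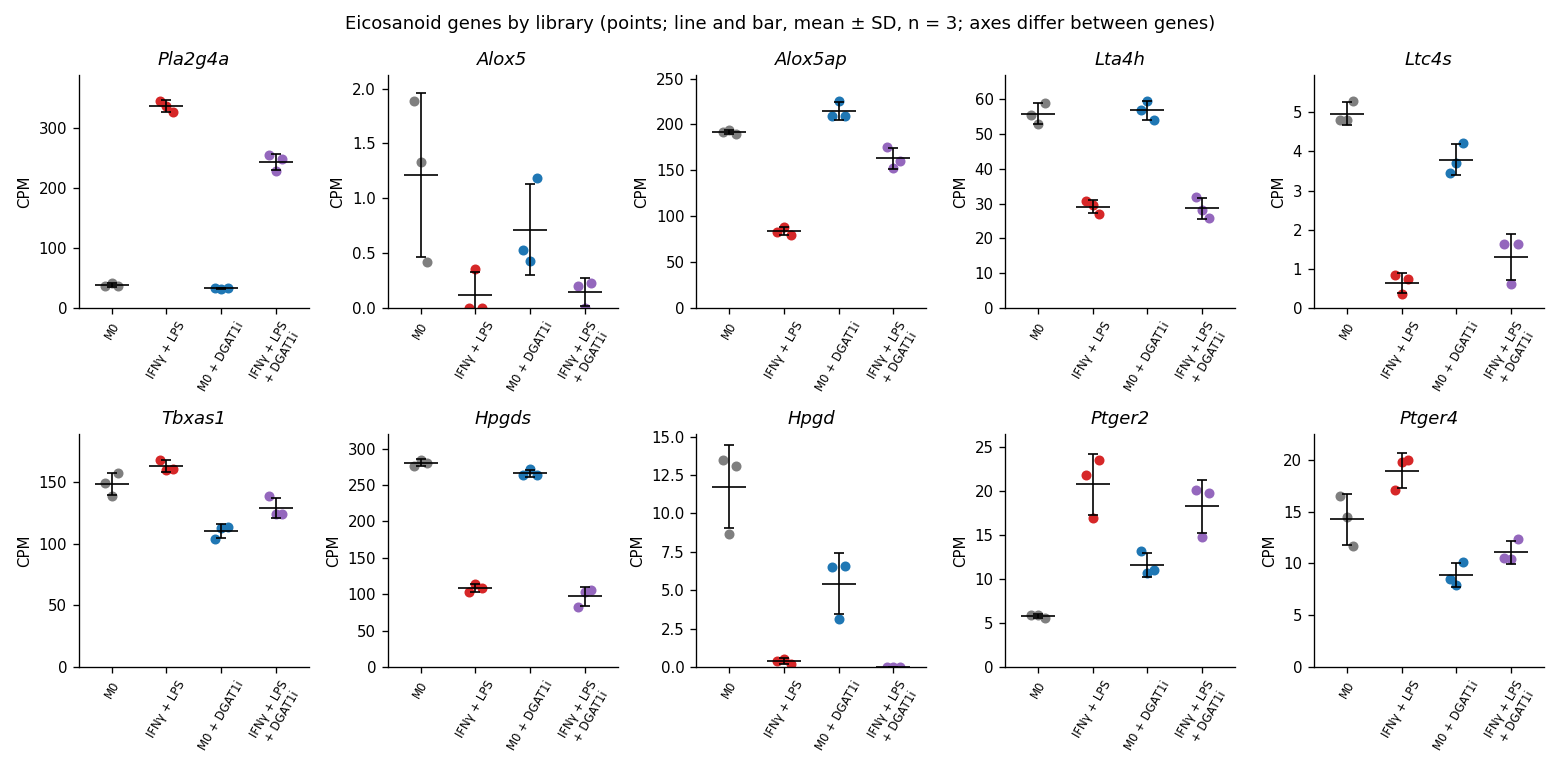
Level of each of the 10 genes in CPM (vertical axis, own scale for each gene) in the 3 libraries of each group (points), with mean ± SD. Pla2g4a was at 326 to 344 CPM in IFNγ + LPS against 36.8 to 41.7 CPM in M0, and Hpgd was at 0 CPM in the 3 libraries of IFNγ + LPS with DGAT1i.

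Pla2g4a encodes cytosolic phospholipase A2, which frees arachidonic acid (chr1:149829618-149961290, GRCm38). It stood at 36.8, 41.7 and 36.8 CPM in the M0 libraries and at 344, 336 and 326 CPM in the IFNγ + LPS libraries, with no overlap. The change was 8.72-fold, or 3.12 ± 0.06 (SE) on the log2 scale (adjusted p = 4.03e-44, edgeR). This was the largest rise among the members. With DGAT1i the same step went from 33.7, 31.7 and 33.7 CPM to 254, 228 and 247 CPM, which is 7.34-fold.

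The 3 tested leukotriene genes fell. Alox5ap encodes FLAP, the 5-lipoxygenase-activating protein (chr5:149264767-149288153), and went from 192, 194 and 190.1 CPM in M0 to 83.0, 88.2 and 80.2 CPM in IFNγ + LPS. The 2.29-fold decrease was far outside the spread of the libraries (log2 fold change -1.20 ± 0.06, SE, adjusted p = 5.09e-25, edgeR). Lta4h encodes leukotriene A4 hydrolase, which makes leukotriene B4 (chr10:93453411-93484875), and went from 55.4, 52.9 and 58.9 CPM to 30.7, 29.7 and 27.0 CPM. It fell 1.91-fold (log2 fold change -0.94 ± 0.09, SE, adjusted p = 7.43e-14, edgeR). Ltc4s encodes leukotriene C4 synthase, the entry to the cysteinyl leukotrienes (chr11:50236461-50238616). Its counts went from 33, 36 and 38 reads to 4, 2 and 4 reads, a 7.55-fold decrease (log2 fold change -2.92 ± 0.38, SE, adjusted p = 1.44e-09, edgeR). Among these 3, groups with and without IFNγ + LPS did not overlap in any library, which was so for every other member too. How many of all genes separate in this way was not counted, here or in the later comparisons.

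Alox5 encodes 5-lipoxygenase itself (chr6:116410077-116461178) and was close to the limit of detection. It had 13, 10 and 3 reads in the M0 libraries and 0, 2 and 0 reads in the IFNγ + LPS libraries. Over the groups this is 26 against 2 reads. After division by the TMM-scaled library sizes, as for the other ratios of reads here, the ratio was 9.43 with an exact 95% counting interval of 2.36 to 81.9, which covers counting error only. With DGAT1i there were 4, 3 and 9 reads in M0 and 1, 0 and 1 reads in IFNγ + LPS, a ratio of 5.03 (1.18 to 45.1). DGAT1i made no detectable difference to Alox5 at this depth, with 2 reads in each activated group and a ratio of 0.60 (0.30 to 1.16) for M0 with DGAT1i to M0.

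The prostaglandin and thromboxane genes divided. Hpgds encodes hematopoietic prostaglandin D synthase (chr6:65117293-65144908) and fell from 276, 285 and 281 CPM to 103, 114 and 109 CPM. The decrease was 2.59-fold (log2 fold change -1.37 ± 0.06, SE, adjusted p = 1.64e-27, edgeR). Hpgd encodes 15-hydroxyprostaglandin dehydrogenase, which inactivates prostaglandin E2 (chr8:56294585-56321043). It had 93, 65 and 94 reads in M0 and 2, 3 and 1 reads in IFNγ + LPS, the largest relative fall of the tested members. The fitted decrease was 29.0-fold (log2 fold change -4.86 ± 0.40, SE, adjusted p = 7.23e-14, edgeR), and the ratio of reads scaled by library size was 30.5 with a counting interval of 13.8 to 83.8. Tbxas1 encodes thromboxane A synthase (chr6:38875404-39084585) and moved little, from 149, 139 and 157 CPM to 168, 159.9 and 160.3 CPM. The groups did not overlap, but the rise was 1.10-fold (log2 fold change 0.13 ± 0.06, SE, adjusted p = 0.038, edgeR). Its call was lost without M0 replicate 1 or 2 or IFNγ + LPS replicate 1 (adjusted p of 0.059, 0.21 and 0.12) and with DESeq2 and by RLE scaling (0.14 and 0.078), and scaling by library size alone turned it to -0.34.

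Both receptors are coupled to cyclic AMP. Ptger2, the EP2 receptor (chr14:44988195-45003820), rose from 5.96, 5.86 and 5.57 CPM to 21.9, 16.9 and 23.6 CPM, which is 3.57-fold (log2 fold change 1.84 ± 0.16, SE, adjusted p = 3.33e-15, edgeR). Ptger4, the EP4 receptor (chr15:5206661-5244187), had 16.6, 14.5 and 11.7 CPM in M0 and 17.1, 19.8 and 20.0 CPM in IFNγ + LPS. The rise was 1.34-fold (log2 fold change 0.42 ± 0.14, SE, adjusted p = 0.0053, edgeR), and it was not called without M0 replicate 3 (adjusted p = 0.060) and was -0.05 by library size alone. That other scaling moved the median change of all genes from 0.01 to -0.46. In the annotation 1097 bases of Ptger4 exon lie under exons of Ttc33 and Gm15937 on the opposite strand. Ttc33 had 85 to 168 reads per library and Gm15937 at most 3. The sources used here differ on whether the kit kept strand, so reads of this stretch cannot be assigned with certainty. Ttc33 itself was not called on activation (log2 fold change 0.10, adjusted p = 0.47, edgeR) or with DGAT1i (adjusted p of 0.89 in IFNγ + LPS and 0.27 in M0). It was called higher on activation under DGAT1i (log2 fold change 0.32, adjusted p = 0.023, edgeR), where Ptger4 had 0.31. The part of Ttc33 in the Ptger4 values was not tested. Ltc4s shares 268 bases of exon with Gm26542 on the opposite strand, which had at most 2 reads per library. The overlaps of Alox5ap (189 bases), Tbxas1 (144) and Ptger2 (246) were with genes of at most 3 reads per library or absent from the counts.

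The same activation step in the presence of DGAT1i called 8 of the 9 tested members, 3 higher and 5 lower, where 70.6% of all genes were called (35.3% higher, 35.3% lower). Directions were those of the step without inhibitor for all 9, Ptger4 staying short of the threshold (log2 fold change 0.31 ± 0.17, SE, adjusted p = 0.094, edgeR) except without M0 with DGAT1i replicate 3 (0.43, adjusted p = 0.043). Hpgds fell 2.75-fold and Lta4h 1.97-fold, close to their values without inhibitor. Alox5ap fell 1.32-fold, from 209, 226 and 209 CPM to 175, 153 and 161 CPM. Ltc4s fell 2.90-fold, from 26, 26 and 32 reads to 8, 3 and 7 reads. Hpgd went from 49, 22 and 50 reads to 0 in all 3 libraries, which is at least 20.3-fold lower by the exact 95% counting limit. Ptger2 rose 1.57-fold, from 13.2, 10.6 and 11.1 CPM to 20.2, 14.8 and 19.8 CPM. Tbxas1 rose 1.17-fold (log2 fold change 0.23 ± 0.06, SE, adjusted p = 0.0011, edgeR) and turned to -0.19 by library size alone. Ptger4 turned to -0.11 by that scaling, and the rise of Ptger2 was not called (log2 fold change 0.23, adjusted p = 0.16). In this comparison it moved the median change of all genes from -0.01 to -0.43.

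The next comparison asks what DGAT1i did in activated macrophages. FLAP transcript was higher, and phospholipase, thromboxane synthase and the EP4 receptor were lower. Of the 9 tested members 4 were called, 1 higher and 3 lower, where 29.8% of all genes were called (13.5% higher, 16.3% lower).

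**Figure D2:**
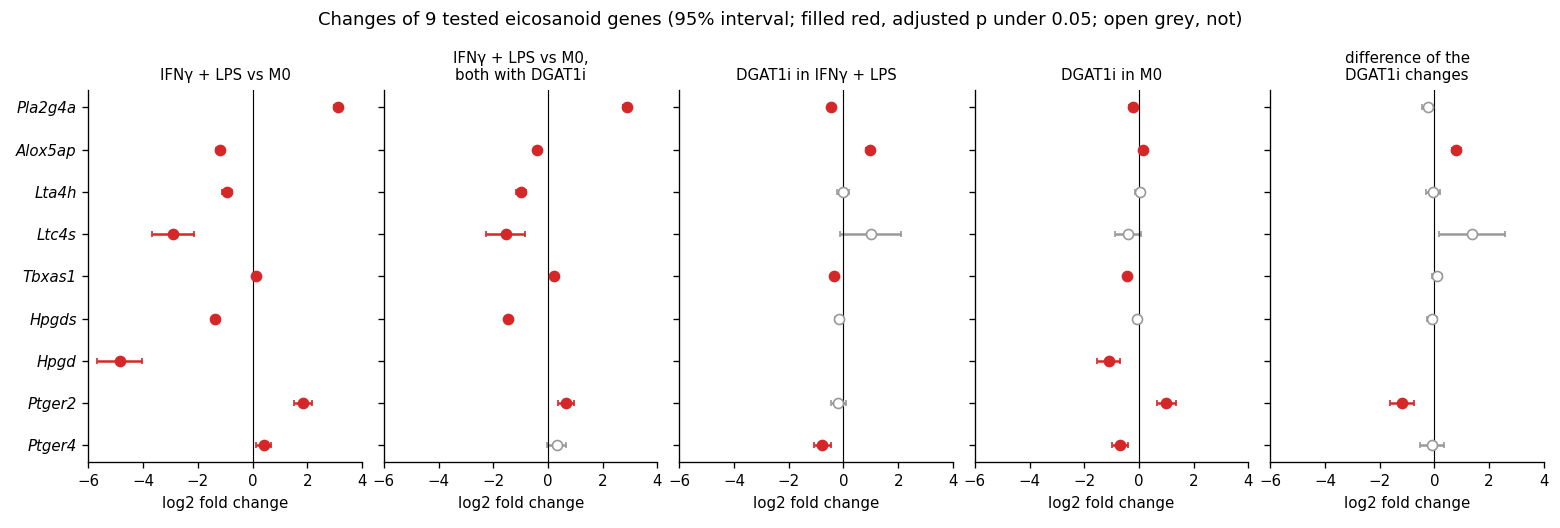
Log2 fold changes (horizontal axis) of the 9 tested genes in 5 comparisons, with 95% intervals; filled red points have an adjusted p under 0.05 and open grey points do not. Hpgd is left out of the 3 comparisons that use the group in which it had 0 reads, and Alox5ap and Ptger2 are the filled points in the difference of the DGAT1i changes.

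Alox5ap stood at 83.0, 88.2 and 80.2 CPM in IFNγ + LPS and at 175, 153 and 161 CPM in IFNγ + LPS with DGAT1i. The groups did not overlap, and the rise was 1.94-fold (log2 fold change 0.96 ± 0.06, SE, adjusted p = 2.90e-18, edgeR). In this comparison 5 of 5 tested neutrophil and precursor markers were called: Ngp, Ltf, S100a8 and S100a9 were higher, with log2 fold changes of 1.70 to 2.68, and Csf3r was lower at -0.42. Of the dendritic cell markers, Clec10a was higher at 2.38 and Xcr1 lower at -2.65, and 5 of 10 macrophage markers were called, Cd68 higher at 0.48 and 4 lower. Their part in the Alox5ap result was not tested, and Ly6g and Retnlg were at 0 reads. Alox5, which works with FLAP, had 2 reads in each of these groups.

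Pla2g4a fell from 344, 336 and 326 CPM to 254, 228 and 247 CPM. The decrease was 1.38-fold (log2 fold change -0.47 ± 0.05, SE, adjusted p = 5.73e-10, edgeR), so that Pla2g4a stayed well above its M0 level. Tbxas1 fell from 168, 159.9 and 160.3 CPM to 139, 124 and 124 CPM, or 1.26-fold (log2 fold change -0.33 ± 0.06, SE, adjusted p = 2.50e-05, edgeR). Ptger4 fell from 17.1, 19.8 and 20.0 CPM to 10.5, 10.4 and 12.4 CPM, or 1.72-fold (log2 fold change -0.78 ± 0.16, SE, adjusted p = 7.28e-05, edgeR). In each of these 3 genes the groups did not overlap. The groups of Hpgd, which was not called, did not overlap either.

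The other 5 tested members were not called. Lta4h differed by -0.02 on the log2 scale with a 95% interval of -0.23 to 0.20, and its libraries overlapped. Ptger2 differed by -0.19 (-0.47 to 0.10, adjusted p = 0.35, edgeR). Hpgds stood at 82.3, 103 and 106 CPM with DGAT1i against 103, 114 and 109 CPM without (log2 fold change -0.16 ± 0.07, SE, adjusted p = 0.068, edgeR). It was called without the low-count filter and without IFNγ + LPS replicate 1 or IFNγ + LPS with DGAT1i replicate 2 or 3 (adjusted p of 0.032, 0.043, 0.035 and 0.020), while without IFNγ + LPS with DGAT1i replicate 1, the lowest library, it was -0.057 (adjusted p = 0.59). Ltc4s had 8, 3 and 7 reads against 4, 2 and 4, with an interval of -0.12 to 2.10 around 0.99. Hpgd had 0 reads against 2, 3 and 1, and the exact 95% counting limit of that decrease was 1.05-fold. Its adjusted p was 0.066 in edgeR's test and fell under 0.05 without M0 replicate 2 or M0 with DGAT1i replicate 2 (0.044 and 0.038), on the same 6 reads. Hpgd was also called with the replicate number as a block, again on these reads.

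In resting macrophages 6 of the 9 tested members were called with DGAT1i, 2 higher and 4 lower, where 24.4% of all genes were called (11.0% higher, 13.4% lower). The EP2 receptor was higher, and Hpgd, the EP4 receptor and thromboxane synthase were lower. Ptger2 went from 5.96, 5.86 and 5.57 CPM to 13.2, 10.6 and 11.1 CPM. This was 2.01-fold with no overlap (log2 fold change 1.00 ± 0.17, SE, adjusted p = 4.57e-06, edgeR). Ptger4 went the other way, from 16.6, 14.5 and 11.7 CPM to 8.50, 7.95 and 10.2 CPM, 1.60-fold lower (log2 fold change -0.68 ± 0.15, SE, adjusted p = 0.00028, edgeR). Per kilobase of merged exons, Ptger4 was above Ptger2 in M0 (2.14 against 1.12 CPM per kb) and below it in M0 with DGAT1i (1.33 against 2.24 CPM per kb), with no overlap of the libraries in either group.

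Hpgd went from 93, 65 and 94 reads in M0 to 49, 22 and 50 reads with DGAT1i in resting cells, or from 11.8 ± 2.69 to 5.41 ± 1.98 CPM (SD, n = 3). The groups did not overlap and the decrease was 2.14-fold (log2 fold change -1.10 ± 0.21, SE, adjusted p = 7.67e-05, edgeR). Replicate 2 was the lowest library of both groups. Tbxas1 fell from 149, 139 and 157 CPM to 104, 113 and 114 CPM, or 1.35-fold (log2 fold change -0.43 ± 0.06, SE, adjusted p = 4.88e-08, edgeR). Hpgd and Tbxas1 were thus both lower in all 3 libraries with DGAT1i than in any M0 library. The same held for Ltc4s and Hpgds, which were not called, so that this separation was not particular to them.

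The smaller changes in resting cells depended on single libraries. Pla2g4a went from 36.8, 41.7 and 36.8 CPM to 33.7, 31.7 and 33.7 CPM (log2 fold change -0.22 ± 0.08, SE, adjusted p = 0.036, edgeR). It was not called without M0 replicate 2 (adjusted p = 0.24) or without any 1 of the M0 with DGAT1i replicates 1, 2 and 3 (0.058, 0.14 and 0.054). Alox5ap went from 192, 194 and 190.1 CPM to 209, 226 and 209 CPM (log2 fold change 0.16 ± 0.05, SE, adjusted p = 0.022, edgeR). It was not called without M0 replicate 1 or 3 or M0 with DGAT1i replicate 2 (0.056, 0.059 and 0.16), nor by library size alone (0.16). Lta4h differed by 0.03 (-0.13 to 0.18), Hpgds by -0.08 (-0.19 to 0.04) and Ltc4s by -0.39 (-0.86 to 0.09), none of them called.

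The last comparison tested whether DGAT1i did something different in activated than in resting cells. Of the 9 tested members 2 were called, 1 higher and 1 lower, where 18.5% of all genes were called (8.66% higher, 9.80% lower). For Alox5ap the change with DGAT1i was 0.80 ± 0.08 (SE) larger in IFNγ + LPS than in M0 on the log2 scale (adjusted p = 1.18e-10, edgeR), from 0.96 in activated and 0.16 in resting cells. In this contrast too the 5 tested neutrophil and precursor markers were called, Ngp at 3.10, Ltf at 2.50, S100a8 at 2.38, S100a9 at 2.20 and Csf3r at -0.70, as was Clec10a of the dendritic cell markers at 2.50. Of 10 macrophage markers 6 were called, Cd14 higher at 0.89 and 5 lower, among them Itgam at -0.68. Their part in the Alox5ap result was not tested. For Ptger2 it was -1.19 ± 0.22 (adjusted p = 5.17e-05, edgeR), from -0.19 in activated and 1.00 in resting cells. The Ptger2 libraries of IFNγ + LPS overlapped with and without DGAT1i, and those of M0 did not.

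For the remaining members no difference between the settings was called. Ptger4 and Tbxas1 fell in both, and the 2 changes differed by -0.10 (-0.54 to 0.33) and 0.10 (-0.08 to 0.27). Pla2g4a differed by -0.25 (-0.44 to -0.05, adjusted p = 0.064, edgeR) and was called without M0 replicate 2 or IFNγ + LPS with DGAT1i replicate 1 (adjusted p of 0.025 and 0.034). Ltc4s differed by 1.38 (0.17 to 2.59, adjusted p = 0.11, edgeR) on few reads and was called without IFNγ + LPS with DGAT1i replicate 2, the lowest library of that group (adjusted p = 0.049). Lta4h differed by -0.04 (-0.31 to 0.22) and Hpgds by -0.09 (-0.27 to 0.09). The 95% intervals are those of single genes, before adjustment over all genes.

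**Figure D3:**
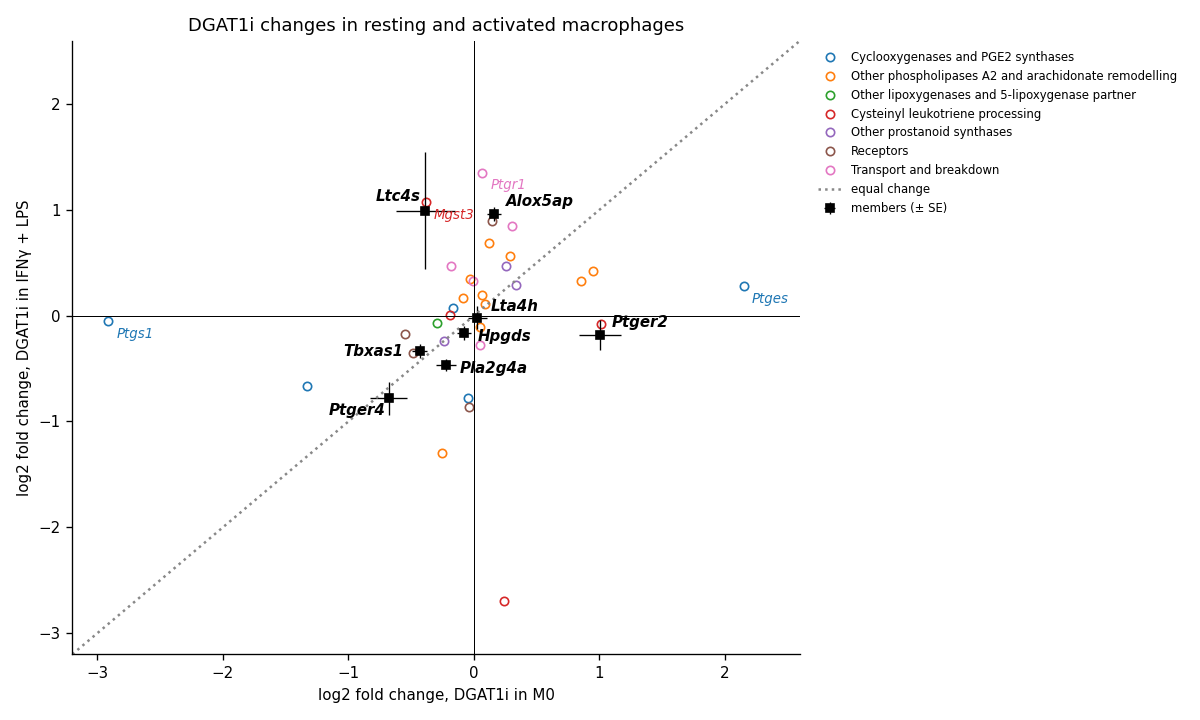
Log2 fold change with DGAT1i in IFNγ + LPS (vertical axis) against that in M0 (horizontal axis) for 8 members (black squares, ± SE; Hpgd, at 0 reads in 1 group, is left out) and 32 other eicosanoid genes (open circles, coloured by role). Ptger4 and Tbxas1 lie near the dotted line of equal change, Alox5ap and Ptgr1 lie above it, and Ptger2 and Ptges lie below it.

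Levels of different genes were compared per kilobase of merged exons. In M0 the order was Alox5ap at 135 ± 1.36 (SD, n = 3) CPM per kb, Hpgds at 43.7 ± 0.68, Tbxas1 at 16.3 ± 0.99, Lta4h at 9.13 ± 0.50, Hpgd at 6.98 ± 1.60, Pla2g4a at 6.01 ± 0.44, Ltc4s at 4.89 ± 0.28, Ptger4 at 2.14 ± 0.37, Ptger2 at 1.12 ± 0.04 and Alox5 at 0.30 ± 0.18. Of neighbours in that order, the libraries of Hpgd and Pla2g4a overlapped. In IFNγ + LPS, Pla2g4a at 52.5 ± 1.48 CPM per kb stood next to Alox5ap at 59.0 ± 2.87, and Hpgds (16.9 ± 0.86) was level with Tbxas1 (17.9 ± 0.52), the libraries of the latter pair overlapping. In IFNγ + LPS with DGAT1i, Alox5ap was at 115 ± 7.90 and Pla2g4a at 38.0 ± 2.12. Divided by the longest transcript, Pla2g4a stood above Alox5ap in IFNγ + LPS, at 97.2 against 67.0 CPM per kb, and above Hpgd in M0, at 11.1 against 6.98 CPM per kb, so that its place in both orders depended on the length used. By that length Tbxas1 and Hpgds were further apart in IFNγ + LPS, at 35.7 against 27.9 CPM per kb.

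**Figure D4:**
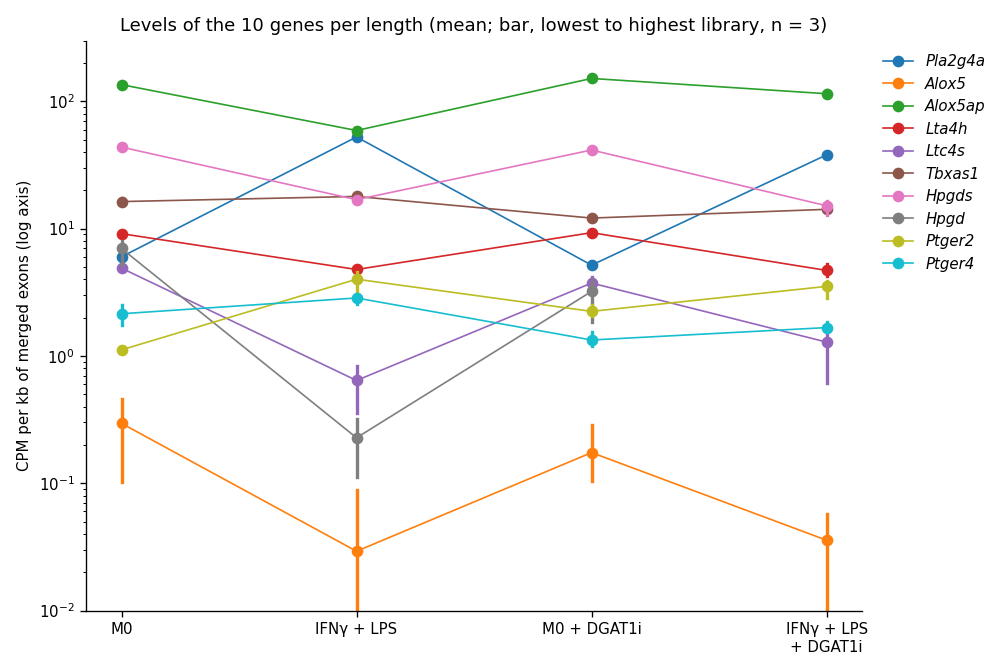
Mean level per kilobase of merged exons (CPM per kb, log axis) of the 10 genes in the 4 groups, with bars from the lowest to the highest of 3 libraries; values of 0 are not drawn and bars reaching 0 end at the lower edge. Alox5ap is the highest in each group and Pla2g4a moves from 6.01 in M0 to 52.5 in IFNγ + LPS.

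The other genes of the pathway were counted from a list of 64, of which 32 passed the filter. Activation called 26 of the 32, where 73.3% of all genes were called (13 higher, 13 lower; median log2 fold change -0.13 beside 0.01 for all genes tested), and DGAT1i in activated cells called 13, where 29.8% of all genes were called (9 higher, 4 lower; median 0.14 beside -0.01). DGAT1i in resting cells called 10, where 24.4% of all genes were called (4 higher, 6 lower; median 0.02 beside 0.00), and the difference between both called 10, where 18.5% of all genes were called (7 higher, 3 lower; median 0.21 beside -0.01).

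Of the cyclooxygenases and prostaglandin E2 synthases, activation raised 4 of 5 tested and lowered 1, where 37.1% of all genes were higher and 36.2% lower. Ptgs2, the inducible cyclooxygenase, had 8 reads over the M0 libraries and 28040 over the IFNγ + LPS libraries. Ptges, the inducible microsomal synthase, had 8 against 579 reads, and Ptges2 rose by 0.63 on the log2 scale. With DGAT1i in activated cells Ptgs2 (log2 fold change -0.66, adjusted p = 4.34e-13, edgeR) and Ptges2 (-0.78, adjusted p = 6.61e-05) were lower and Ptges was higher (0.28, adjusted p = 0.044). Ptgs1, the constitutive cyclooxygenase, fell from 29, 39 and 23 reads to 1, 5 and 1, and with DGAT1i in resting cells to 2, 3 and 7, a log2 fold change of -2.91 ± 0.40 (SE, adjusted p = 5.61e-08, edgeR). In activated cells Ptgs1 had 4, 1 and 1 reads with DGAT1i, and the difference between the settings was 2.86 ± 1.04 (adjusted p = 0.045, edgeR). With so few reads in both activated groups a fall there could not be seen. The difference therefore rests on the fall in resting cells and does not show another response in activated cells. Ptges went from 1, 2 and 5 reads in M0 to 13, 6 and 19 reads with DGAT1i, and its difference between the settings was -1.87 ± 0.51 (adjusted p = 0.0054, edgeR).

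Among other phospholipases and arachidonate remodelling enzymes, 2 of 10 tested genes were higher and 3 lower on activation, beside 37.1% and 36.2% of all genes. Pla2g7, which degrades platelet-activating factor, rose by 3.62 on the log2 scale, while Pla2g15, a lysosomal phospholipase, fell by 0.83 and Mgll, which releases fatty acid from monoglyceride, fell by 0.58. Cotl1, a protein that binds 5-lipoxygenase, fell by 1.90, and no lipoxygenase passed the filter.

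Genes that process or receive cysteinyl leukotrienes moved in both directions. On activation 1 of 4 tested processing genes was higher and 3 lower, beside 37.1% and 36.2% of all genes. Of 4 tested eicosanoid receptors on the list 3 were higher and 1 lower. Mgst3, a microsomal enzyme able to make leukotriene C4, fell from 54.1 ± 3.50 (SD, n = 3) CPM to 5.11 ± 1.35 CPM on activation and stood at 10.9 ± 0.92 CPM in IFNγ + LPS with DGAT1i. That rise with DGAT1i was 1.07 ± 0.19 (SE) on the log2 scale (adjusted p = 1.50e-05, edgeR), and it was 1.46 ± 0.21 larger than in resting cells (adjusted p = 4.59e-07, edgeR). Dpep2, a peptidase that turns leukotriene D4 into E4, fell by 1.17 on activation. The receptor Cysltr1 fell by 1.78 and the receptor Cysltr2 rose by 3.78, both on the log2 scale, and Fpr2, a formyl peptide receptor that also binds lipoxin A4, had 7 reads over the M0 libraries and 3358 over the IFNγ + LPS libraries.

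Of 5 other prostanoid synthases 3 were tested (Ptgis and Ptgds did not pass the filter). These 3 fell on activation, where 36.2% of all genes were lower: Prxl2b by 1.53, Akr1b3 by 1.15 and Cbr1 by 0.59 on the log2 scale. Of 5 tested genes of transport and breakdown, 3 rose, where 37.1% of all genes did, among them Cyp4f18, which inactivates leukotriene B4, by 1.35. The exporter Abcc4 fell by 0.66. Ptgr1, a reductase that inactivates leukotriene B4 and prostaglandins, stood at 59.2 ± 3.26 (SD, n = 3) CPM in IFNγ + LPS and at 151 ± 15.1 CPM with DGAT1i, against 39.5 ± 1.08 CPM in M0. Its rise with DGAT1i in activated cells was 1.35 ± 0.08 (SE) on the log2 scale (adjusted p = 6.82e-21, edgeR), 1.29 ± 0.12 larger than in resting cells (adjusted p = 1.01e-12, edgeR).

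The genes whose levels ran most like those of 2 members over the 12 libraries were taken from 10171 genes by Pearson's r of log2 CPM. The 12 libraries form 4 groups, so that r mostly describes the group means. For Hpgd, they were Smarcc1 (r = 0.993), Gpr34 (0.992) and Tk1 (0.990). Smarcc1 stood at 80.9, 49.5, 68.5 and 43.3 CPM in M0, IFNγ + LPS and the same with DGAT1i, a much smaller range than that of Hpgd, since r compares the shape and not the size of a change. Gpr34 stood at 15.9 CPM in resting and 0.57 CPM in activated cells, and with DGAT1i at 7.33 and 0.07 CPM. Tk1 stood at 68.4, 1.10, 26.1 and 0.43 CPM in that order. For Alox5ap they were Slc30a4 (0.980), Ckap4 (0.980) and Pygl (0.978). Pygl stood at 70.9, 30.2, 81.9 and 64.4 CPM in the same order of groups.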

How the data were processed

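Raw read counts per gene were deposited by the authors for 12 libraries in 1 table, made with their institute's pipeline and not normalized. Aligner, counter and strand setting: not given in the sources used here. The submitters' processing notes name GRCm38. Groups came from the sample titles. Symbols, positions and lengths came from GENCODE M21 on GRCm38 (47310 identifiers matched without their version). The count table was analysed in R 4.3.3 with edgeR 4.0.16: filterByExpr, which kept 11760 genes, TMM scaling, 1 mean per group over all 12 libraries, glmQLFit (robust) and glmQLFTest, with Benjamini-Hochberg adjustment and a threshold of 0.05. The model was run on counts simulated from its own fit, with changes set in genes well read in M0. That run does not cover groups at or near 0 reads. The members, the list of other eicosanoid genes and the motifs were chosen with earlier results of these data known. From that list, genes were named if called with a log2 change of at least 1 with DGAT1i in activated cells or between the settings, and up to 3 per role were named on activation by size of change, at an average log2 CPM of at least 2. Like-patterned genes were the 3 with the highest r for Hpgd and Alox5ap, the called members with the largest change on activation and with DGAT1i in M0 (Hpgd) and with DGAT1i in activated cells (Alox5ap). Alternatives were RLE scaling, library size alone, no filter, DESeq2 1.42.0, a replicate block, only the 6 libraries compared, and leaving out each library.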

Additional observations from a re-analysis of the deposited data

Results flagged for a closer look

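The response to DGAT1i differed between activated and resting macrophages for 2 of the 9 tested members, by a test of the difference itself (edgeR's quasi-likelihood test, adjusted over 11760 genes, of which 18.5% were called). For Alox5ap the difference was 0.80 on the log2 scale (adjusted p = 1.18e-10), all 3 libraries of each DGAT1i group lying above those of their untreated group. In the same test 5 of 5 tested neutrophil and precursor markers were called, 4 of them higher and Csf3r lower. Clec10a was also called higher, and 6 of 10 macrophage markers were called, 1 higher and 5 lower. The part of these markers in the difference was not tested. For Ptger2 it was -1.19 (adjusted p = 5.17e-05): 3 of 3 resting libraries rose above the untreated ones, while the activated groups overlapped. Of the 32 other eicosanoid genes tested 10 were called. Among those with a difference of at least 1 it was 2.86 for Ptgs1 (adjusted p = 0.045) and -1.87 for Ptges (adjusted p = 0.0054), both with few reads in 1 or more groups, and 1.46 for Mgst3 (adjusted p = 4.59e-07) and 1.29 for Ptgr1 (adjusted p = 1.01e-12). Ptgs1 had 7 reads over the libraries of IFNγ + LPS and 6 with DGAT1i. A fall there could not be seen, and its difference rests on the fall in resting cells. The other 6 called differences were smaller: Ptgir (0.75, adjusted p = 0.019), Ptges2 (-0.73, adjusted p = 0.0091), Abcc4 (0.65, adjusted p = 0.0017), Abcc1 (0.54, adjusted p = 1.65e-06), Pla2g7 (-0.53, adjusted p = 0.010) and Cotl1 (0.22, adjusted p = 0.034).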

How the results depend on the processing

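Counts of called members stayed within 1.5 times under every alternative run. Of 259 values of single members under other processing, 239 kept direction and side of the threshold, 11 fell short of it, 2 newly passed it and 7 turned; of 540 with 1 library left out, the numbers were 512, 11, 9 and 8. Scaling by library size alone turned Tbxas1 (-0.34) and Ptger4 (-0.051) on activation, both on activation under DGAT1i (-0.19 and -0.11), and Lta4h with DGAT1i in M0 (-0.032) and between the settings (0.0062). With only the 6 libraries compared, Lta4h with DGAT1i in activated cells was 0.0019. With 1 library left out, the values that turned were near 0: Lta4h with DGAT1i in activated cells ranged from -0.10 to 0.042, with DGAT1i in M0 from -0.013 to 0.067 and between the settings from -0.13 to 0.017, while between the settings Hpgds ranged from -0.16 to 0.019 and Ptger4 from -0.22 to 0.017. The cause was not tested. Tbxas1 on activation was not called by RLE scaling, without the filter, by DESeq2 or in only the 6 libraries compared (adjusted p of 0.078, 0.13, 0.14 and 0.065). With DGAT1i in M0, neither Pla2g4a nor Alox5ap was called without the filter (0.081 and 0.056) or by DESeq2 (0.052 and 0.10). Without the filter, Alox5 was called on activation (log2 fold change -3.06, adjusted p = 0.0010) and under DGAT1i (-2.22, adjusted p = 0.0496). Same-numbered libraries deviated together little or not at all (r from -0.02 to 0.07 over 18 pairs). With 3 libraries per group this cannot show whether the numbers pair the samples. With the replicate number as a block, 9, 8, 5, 6 and 2 members were called in the 5 comparisons against 9, 8, 4, 6 and 2 without it, where the block called 73.4%, 70.7%, 30.3%, 25.2% and 19.3% of all genes. Hpgd was added with DGAT1i in activated cells (adjusted p = 0.031), on 0 against 6 reads; 2 libraries of 12 were closest to those with their own number.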
